A study of Mus musculus with 2 samples.

Results

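Endothelial cells that held RNA of both Gja4, a gap junction gene of arteries, and Stmn2, a regulator of microtubules best known from neurons, were picked out of 9917 sorted cells of mouse embryos by their unique molecular identifiers (UMIs, each standing for 1 captured RNA molecule). A member held at least 1 UMI of Gja4, at least 1 of Stmn2 and at least 1 summed over the endothelial junction genes Cdh5 and Pecam1. It also held at most 1 UMI summed over Htra1, Nkx2-3, Fbn1 and Ltbp4, which mark another group of arterial cells and are called the matrix genes here. The rule found 443 members, 436 of them in the WT library and 7 in the KO library. Since the rule reads the same counts that are described below, the levels of these 8 genes in the members are a description and support nothing.

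The study compared endothelium with and without a deletion of Mekk3, the kinase encoded by Map3k3, in C57BL/6J embryos with droplet-based 3′ RNA sequencing. The 1 WT library came from Mekk3 fl/fl and Mekk3 fl/+ embryos, so floxed alleles without a recombinase, and the 1 KO library from Mekk3 fl/-; Tie2Cre+ embryos. Both came from the dorsal aorta together with the umbilical and the vitelline arteries, sorted as Ter119- CD41lo/- CD31+CD144+ ESAM+. The titles put both libraries at embryonic day 9.5, the KO stage label reads 9.7, and the number of embryos in each pool is not stated. Tie2Cre acts in endothelial and blood cells. With 1 library for each genotype, no difference has a replicate check and no p-value is given. Intervals in brackets are exact, at the 95% level, and hold counting error alone.

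The WT library held 6675 cells and 60790367 UMIs, and the KO library 3242 cells and 21512713 UMIs. Of these, 6089 WT and 2769 KO cells held a UMI of Cdh5 or Pecam1 and are called endothelial cells here. The 436 WT members held 3943472 UMIs, with a median of 7182.5 per cell and a range of 665 to 40413, and the 5653 other WT endothelial cells held 53811156, with a median of 8082. The 7 KO members held 84641 UMIs, with a median of 12153. The WT library mixed cells with Xist UMIs and cells with UMIs of Y-linked genes, while 0 KO cells held a Y-linked UMI. Both kinds of UMI, which 1 cell should not hold together, occurred in 22 WT members (5.05%) and in 2.05% of the other WT endothelial cells. The libraries shared 5 cell barcodes, and 0 members were among them. Map3k3 stood at 9.64 CPM (a gene's UMIs per 1000000 UMIs of the cell group) in WT members, from 38 UMIs. In KO members it stood at 23.6 CPM (2.86 to 85.4), from 2 UMIs. That interval includes the WT level, so these counts do not show whether Map3k3 was lower under the KO label. Reads from the 3′ end do not show whether the floxed exons are gone, which leaves both the deletion and the labels unchecked.

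Arterial endothelial cells are set apart from venous ones early in vascular development by Notch signalling, in which the ligand Dll4 and the target genes Hey1 and Hey2 take part, and by the ephrin Efnb2. Venous endothelium is marked by the transcription factor Nr2f2 and the apelin receptor Aplnr. Connexins 37 and 40, the proteins of Gja4 and Gja5, join arterial endothelial cells into an electrically and chemically coupled sheet, and the entry into the arterial fate goes along with slower cell division. Stathmins such as Stmn2 bind tubulin and destabilise microtubules.

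The 6 genes that name these cells lie at separate loci of GRCm38 (GENCODE vM21), and all are protein coding. Gja4 (ENSMUSG00000050234) lies on chromosome 4 from 127311421 to 127314039 on the minus strand and Stmn2 (ENSMUSG00000027500), on the plus strand, spans chromosome 3 from 8509360 to 8561606. Gja5 (ENSMUSG00000057123), on the plus strand, spans chromosome 3 from 96904693 to 97077416. Cxcr4 (ENSMUSG00000045382), the receptor of the chemokine Cxcl12, lies on chromosome 1 from 128588199 to 128592293 on the minus strand. Cdkn1c (ENSMUSG00000037664), an imprinted inhibitor of cyclin-dependent kinases also called p57, lies on chromosome 7 from 143458339 to 143461050 on the minus strand. Egfl8 (ENSMUSG00000015467), which encodes a secreted protein with epidermal growth factor-like domains, lies on chromosome 17 from 34613349 to 34615971 on the minus strand. Gja5 and Egfl8 overlap genes annotated on the opposite strand, and whether the counting used strand is not given in the sources used here, so their levels are uncertain to that extent.

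The promoters of the 4 of these genes with a RefSeq entry (GRCm38.p6) are shown because these genes name the cells, and a KLF-type motif was searched because Mekk3 acts upstream of transcription factors of the KLF family. Each runs 5′ to 3′ from 250 bases before to 50 bases after the start of transcription, and capitals mark the letters CACCC or their reverse complement GGGTG, a core of KLF-type motifs, searched on both strands. These letters occur in 18895 of all 32851 promoters of this length in the table (57.5%), so a match is a description and not a site. The Gja4 window (chr4:127313990-127314289, minus strand) held 0 matches, the Gja5 window (chr3:97032152-97032451, plus strand) 4, and the Cxcr4 window (chr1:128592250-128592549, minus strand) and the Egfl8 window (chr17:34615922-34616221, minus strand) 1 each.
Gja4: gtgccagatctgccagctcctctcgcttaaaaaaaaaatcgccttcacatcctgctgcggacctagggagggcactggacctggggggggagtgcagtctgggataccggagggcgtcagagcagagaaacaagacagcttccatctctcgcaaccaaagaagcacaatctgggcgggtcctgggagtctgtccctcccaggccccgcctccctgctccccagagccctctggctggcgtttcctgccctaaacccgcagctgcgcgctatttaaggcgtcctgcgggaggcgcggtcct
Gja5: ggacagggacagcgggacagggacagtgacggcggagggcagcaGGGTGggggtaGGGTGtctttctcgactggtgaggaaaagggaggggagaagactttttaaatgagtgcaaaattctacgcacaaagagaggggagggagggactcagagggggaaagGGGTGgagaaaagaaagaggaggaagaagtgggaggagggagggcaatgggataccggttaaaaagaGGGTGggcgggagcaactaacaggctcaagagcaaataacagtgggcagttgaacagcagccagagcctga
Cxcr4: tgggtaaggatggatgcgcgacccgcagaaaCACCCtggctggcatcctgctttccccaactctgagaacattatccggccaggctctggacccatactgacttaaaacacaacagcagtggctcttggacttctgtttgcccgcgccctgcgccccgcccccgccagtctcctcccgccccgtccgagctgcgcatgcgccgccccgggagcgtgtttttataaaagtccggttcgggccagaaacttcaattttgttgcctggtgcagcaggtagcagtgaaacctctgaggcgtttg
Egfl8: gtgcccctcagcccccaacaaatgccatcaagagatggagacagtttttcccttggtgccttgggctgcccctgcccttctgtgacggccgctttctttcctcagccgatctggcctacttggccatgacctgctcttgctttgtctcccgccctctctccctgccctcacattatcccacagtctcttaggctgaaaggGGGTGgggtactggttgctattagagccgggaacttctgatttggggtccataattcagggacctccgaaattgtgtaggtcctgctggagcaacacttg

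Members were a far larger share of the endothelium in the WT than in the KO library. They made up 436 of 6089 endothelial cells in WT (7.16%, 6.53 to 7.84) and 7 of 2769 in KO (0.253%, 0.102 to 0.520). After every cell was thinned to 3000 UMIs, which left out 1078 WT and 712 KO endothelial cells that were shallower and counted only cells that still held a Cdh5 or Pecam1 UMI, 199 of 3960 WT cells (5.03%, 4.37 to 5.75) and 1 of 1558 KO cells (0.0642%, 0.00163 to 0.357) met the rule. The intervals of the libraries did not overlap at either depth. Within WT the share was close in cells with Xist UMIs only (185 of 2596, 7.13%) and in cells with Y-linked UMIs only (96 of 1459, 6.58%), so the KO share lay below both. Whether this gap belongs to the genotype cannot be told apart from the library, the stage label or the pool of embryos.

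The gap between the libraries was wider for Stmn2 than for Gja4. Gja4 UMIs were found in 1512 of the WT (24.8%, 23.8 to 25.9) and 328 of the KO endothelial cells (11.8%, 10.7 to 13.1), and Stmn2 UMIs in 1684 (27.7%, 26.5 to 28.8) and 43 (1.55%, 1.13 to 2.09). Thinned to 3000 UMIs, the shares were 17.1% and 8.54% for Gja4 and 17.5% and 0.578% for Stmn2. Among Gja4 cells within the limit on the matrix genes, 436 of 1238 WT cells (35.2%, 32.6 to 37.95) and 7 of 301 KO cells (2.33%, 0.940 to 4.73) also held Stmn2. The KO library thus kept 294 Gja4 cells that lacked only a Stmn2 UMI. As a measure of free RNA, cells with mesenchyme markers and no Cdh5 or Pecam1 UMI were taken in WT, with a median of 8562 UMIs. Gja4 was found in 2 of 51 of them (3.92%, 0.478 to 13.5) and Stmn2 in 0 of 51, which allows a share of up to 5.88%. Cells with neural markers, with a median of 5101 UMIs, held Gja4 in 2 of 47 and Stmn2 in 26 of 47 (55.3%, 40.1 to 69.8).

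**Figure D1:**
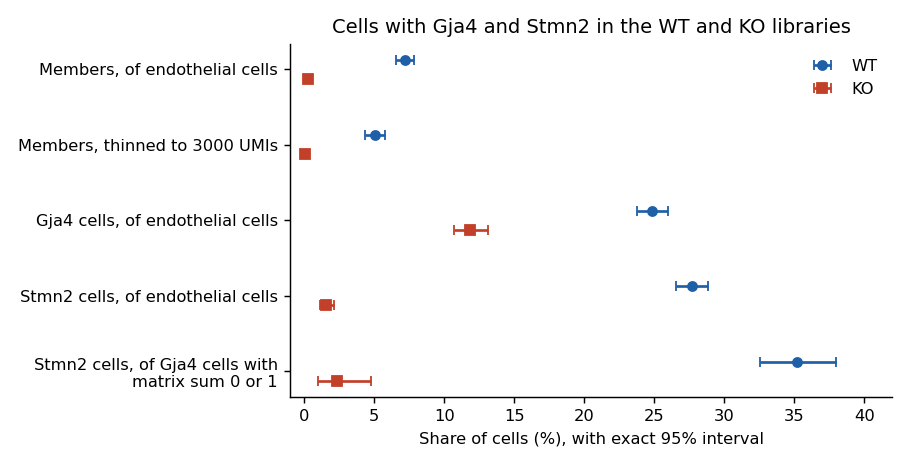
Share of cells in percent (x axis) for 5 quantities (y axis) in the WT (circles) and KO (squares) libraries, with exact 95% intervals. The WT points lie to the right of the KO points in all 5 rows, with members at 7.16% and 0.253% of endothelial cells.

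Most members held few UMIs of the genes that define them. Per WT member, Gja4 had a lowest, median and highest count of 1, 4 and 32 UMIs, and Stmn2 of 1, 3 and 34. A single Gja4 UMI was held by 95 members and a single Stmn2 UMI by 137, 39 held 1 of each, and 243 held at least 2 of both. All 7 KO members had exactly 1 Stmn2 UMI, and their Gja4 counts ran from 1 to 8 with a median of 2. So 0 KO members would meet a rule of at least 2 UMIs of both genes.

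Values just inside and just outside the rule differed by gene. Members with 1 Gja4 UMI stood at 26.2 CPM of Gja5, against 1.63 CPM in the 1045 endothelial cells that met every part of the rule except Gja4. Members with 1 Stmn2 UMI stood at 110.3 CPM of Gja5, against 57.7 CPM in the 802 WT cells that met every part except Stmn2. Gja5 stood at 254 CPM in the 92 members with 1 matrix gene UMI and at 326 CPM in the 44 cells with 2, just outside, against 92.2 CPM in the 344 members with 0. The limit on matrix genes therefore passed through a range of Gja5 levels.

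The arterial markers were higher in the members as a group but were not found in every member. The 4 markers that the rule did not use were picked from earlier results of these data, so their higher level is a description. Of these 4, Cdkn1c was found in 394 of 436 WT members, with a lowest, median and highest count of 0, 5.5 and 88 UMIs. Gja5 was found in 181 members (41.5%) with a highest count of 11 UMIs, and Cxcr4 and Egfl8 in 120 members each (27.5%) with highest counts of 5 and 6 UMIs. In other WT endothelial cells the shares were 66.7% for Cdkn1c, 8.12% for Gja5, 3.998% for Cxcr4 and 4.37% for Egfl8. Thinned to 3000 UMIs, Gja5 was found in 24.5% of members and 3.81% of the others, Cxcr4 in 14.3% and 1.58%, Egfl8 in 11.6% and 1.69%, and Cdkn1c in 80.9% and 44.1%.

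The summed levels of these markers lay 3.81-fold to 8.29-fold above those of the other WT endothelial cells. Egfl8 stood at 45.9 CPM (39.5 to 53.1) in members and 5.54 CPM (4.93 to 6.204) in the others, a ratio of 8.29 with an interval from 6.85. Cxcr4 stood at 47.4 CPM (40.9 to 54.7) and 5.84 CPM (5.21 to 6.52), a ratio of 8.13 (6.74 to 9.77). None of these pairs of intervals overlapped. Gja5 stood at 119 CPM (109 to 130.5) and 23.8 CPM (22.5 to 25.2), and Cdkn1c at 1031 CPM (999.1 to 1063) and 270.4 CPM (266 to 275), a ratio of 3.81 (3.68 to 3.95). Because a rule that asks for a UMI favours cells in which chance drew one, the UMIs of each cell were also divided at random into 2 parts, with the 309 members chosen on one part and measured on the other. Gja5 was then 7.68-fold, Cxcr4 9.03-fold, Egfl8 8.85-fold and Cdkn1c 4.53-fold higher, and Gja4 and Stmn2 themselves were 8.52-fold and 6.84-fold higher. These 309 cells are not the same group as the members, since the limit on matrix genes was read on fewer UMIs: Nkx2-3 was 4.95-fold, Htra1 3.36-fold, Ltbp4 3.16-fold and Fbn1 2.55-fold higher in them than in the others.

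Across all genes, 8616 were measured with a mean of at least 5 CPM over the members and the others and at least 20 UMIs. A gene was called higher or lower where the ratio was at least 2-fold and its interval excluded 1. In members 206 genes (2.39%) were called higher and 59 (0.685%) lower, and a higher value of any size was found for 55.5%. The median log2 ratio of all genes was 0.04.

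Arterial identity genes were higher in the members almost throughout. Of the 28 genes of the arterial list, 26 were measured, all 26 had a higher level in members and 21 were called higher, with a median log2 ratio of 1.56. The list was drawn up with earlier results of these data known, so its count is no independent evidence of its direction. Efnb2, the ephrin that marks arteries, stood at 133.9 CPM against 49.3, a ratio of 2.72 (2.47 to 2.99). Vegfc, a growth factor for lymphatic and blood endothelium, had a ratio of 4.62 (4.03 to 5.28). Igfbp3, which binds insulin-like growth factors, had 3.81 (3.59 to 4.04), and the membrane protein gene Tmem100 4.40 (3.803 to 5.08). Mecom, a transcription factor of arterial and blood-forming cells, had a ratio of 3.15 (2.82 to 3.51). The 5 measured genes that stayed under 2-fold were Edn1, the gene of endothelin, at 1.07 (0.925 to 1.23), the Notch ligand gene Jag1, the BMP receptor gene Acvrl1, and the SOXF factors Sox18 at 1.54 (1.42 to 1.67) and Sox17 at 1.87 (1.73 to 2.01). Of the 2 genes not measured, Fbln5 had 0 UMIs in members and Alpl was too low.

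Notch genes were raised in part. Of 16 measured genes 13 had a higher value and 7 were called higher, namely the receptors Notch1 and Notch4, the ligands Dll4 and Jag2, the targets Hey1 and Hey2 and the glycosyltransferase gene Lfng. Dll4 stood at 55.5 CPM in members and 17.1 CPM in the others, a ratio of 3.26 (2.80 to 3.78), and Hey1 at 88.2 against 21.1 CPM, with a ratio of 4.18 (3.69 to 4.71). Hes1, another Notch target, was not raised and stood at 97.9 and 119 CPM. The Notch contrast was not particular to the members. Against Gja4 cells without Stmn2, 0 of 16 genes were called, with a ratio of the sums of 1.01 (0.960 to 1.05). Against Gja4 cells with 2 or more matrix gene UMIs, 13 of 16 had a lower value in members, as had 5503 of all 8957 genes.

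Chemokine genes showed the largest list median, 3.02 over 3 measured genes, all called higher. That median is the value of Cxcr4, a gene that names the cells. Cxcr4 and Cxcl12 are also on the arterial list, so the 2 lists are not separate. Beside Cxcr4, its ligand gene Cxcl12 stood at 27.9 CPM in members and 2.95 CPM in the others, a ratio of 9.44 (7.33 to 12.1), and the scavenger receptor gene Ackr3 had a ratio of 4.89 (3.37 to 6.98). Of the vascular connexins beside Gja4, Gja5 and Gja1 were called higher among 4 measured. Among guidance genes 6 of 13 were called higher, with the netrin receptor gene Unc5b at a ratio of 3.68 (3.21 to 4.22) and the neuropilin gene Nrp1, a co-receptor for VEGF and semaphorins, at 2.06 (1.96 to 2.17), and 1 was called lower, Nrp2, the neuropilin of veins and lymphatics, at 47.7 against 129.5 CPM, a ratio of 0.368 (0.317 to 0.426).

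A minority of venous genes were called lower, and Nr2f2 and Aplnr were among them. Of 12 measured venous and lymphatic genes 9 had a lower value, 4 were called lower and 2 higher, with a median log2 ratio of -0.40. Nr2f2 stood at 48.9 CPM (42.3 to 56.4) in members and 110.8 CPM (108 to 114) in the others, and 85 of 436 members held it. Of its UMIs in members, 56.0% lay in 20 cells. Aplnr had 48.9 CPM in members against 120.7 CPM, with a ratio of 0.405 (0.349 to 0.468), and Prox1, the lymphatic transcription factor, at 1.52 CPM from 6 UMIs against 17.1. The 2 venous-list genes called higher were Foxq1 at a ratio of 2.23 (1.91 to 2.61) and Vwa1 at 2.25 (2.01 to 2.52).

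**Figure D2:**
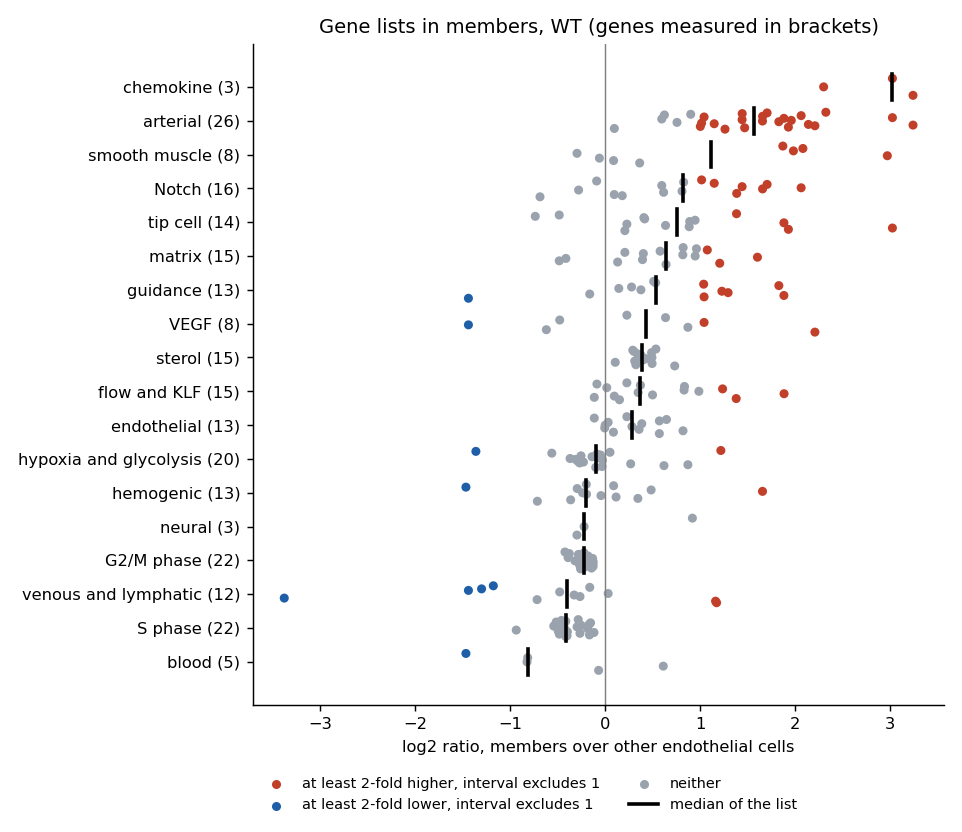
Log2 ratio of members over other WT endothelial cells (x axis) for each measured gene (points) of 18 gene lists (rows, with the number of genes measured), coloured by call, with the median of each list as a bar. The chemokine and arterial lists, which share Cxcr4 and Cxcl12, lie farthest to the right, with medians of 3.02 and 1.56. The blood list lies farthest to the left at -0.81.

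Cell cycle genes had slightly lower values in members than in the other endothelial cells, and 1 inhibitor of the cycle was called higher. All 22 S-phase genes had a lower level in members, with a median log2 ratio of -0.41, and 0 were called. All 22 G2/M genes were lower as well, with a median of -0.22, and again 0 were called, whereas 44.5% of all genes had a lower value. The G2/M contrast was not particular to the members: 15 of 22 genes had a higher value in members than in Gja4 cells without Stmn2 (2827 against 2669.9 CPM summed), and 16 of 22 a higher value than in Gja4 cells with 2 or more matrix gene UMIs (2827 against 2294 CPM). Of all genes, 4174 of 8695 and 3454 of 8957 had a higher value. The S-phase sums had a ratio of 0.790 against all others. It was 0.957 (0.925 to 0.990) against the first of these Gja4 groups, with 19 of 22 genes lower. Against the second it was 0.955 (0.913 to 0.999), with 13 of 22 lower. Rrm2, a subunit of ribonucleotide reductase, stood at 111.6 CPM in members and 162 CPM in the others, a ratio of 0.687 (0.623 to 0.756), and the topoisomerase gene Top2a at 182 and 213 CPM. Ccnd1 and Ccnd2, D-type cyclins that carry cells into S phase, had ratios of 0.690 (0.628 to 0.756) and 0.565 (0.487 to 0.653). Of the 4 measured inhibitors only Cdkn1c was called higher; Cdkn1a had a ratio of 1.24 (1.03 to 1.49), whose direction reversed after thinning and with at least 2 UMIs of both genes. Odc1, the rate-limiting enzyme of polyamine synthesis, was lower in members, at 80.9 CPM against 238 CPM, a ratio of 0.340 (0.304 to 0.381), and was found in 25.2% of members and 64.1% of the others. Sat1, which acetylates polyamines for breakdown and export, was higher, at 507 CPM against 132 CPM, a ratio of 3.85 (3.66 to 4.05).

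Most flow-responsive genes had a higher value in members, by less than 2-fold. The list summed to 1467 CPM in members and 1067 CPM in the others, a ratio of 1.37 (1.34 to 1.41), with 13 of 15 genes higher. The flow-induced transcription factor Klf2 had 489.9 CPM in members and 418 CPM in the others, a ratio of 1.17 (1.12 to 1.23), and Klf4 52.7 against 56.1 CPM, with a ratio of 0.940 (0.813 to 1.08). Of the 15 measured genes of the flow and KLF list 3 were called higher. These were the caveolar coat gene Cav1 at 3.69 (3.28 to 4.14), the scaffold gene Slc9a3r2 at 2.36 (2.19 to 2.53) and Smad6, an inhibitor of BMP signalling, at 2.59 (2.01 to 3.31). Pan-endothelial genes were similar or slightly higher, with 0 of 13 called and a median log2 ratio of 0.28. Of 13 measured genes of hemogenic endothelium 5 had a higher value and 8 a lower one. Mecom alone was called higher and Spi1 alone lower. Runx1, a master regulator of blood stem cell formation, had levels of 7.35 CPM in members and 8.57 CPM in the others.

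The leading genes were ranked by the bound of the interval nearest to 1, among genes averaging 20 CPM or more. The genes of the rule and mitochondrial, ribosomal protein, hemoglobin and predicted genes were left out. So were Xist, Tsix and the Y-linked genes Ddx3y, Eif2s3y, Kdm5d and Uty, while other genes of the X chromosome were kept. The 15 farthest above were Egfl8, Cxcr4, Gja5, Serpinf1, Vegfc, Tmem100, Hey1, Cdkn1c, Sat1, Tagln, Igfbp3, Myl9, Cav1, Unc5b and Hspb1. Cxcl12 and Actc1, whose mean lay under that minimum, had bounds of 7.33 and 5.15. Cxcr4, Gja5, Vegfc, Tmem100, Hey1, Igfbp3 and Unc5b among them are on the arterial list. Serpinf1, a secreted inhibitor of angiogenesis, stood at 97.1 against 20.6 CPM, a ratio of 4.72 (4.19 to 5.30). Far below were Odc1, Nrp2, Flrt2, Aplnr, Nr2f2, Dctd, Dnph1, Phgdh and Samsn1. Of the genes left out of the ranking, the 5 measured hemoglobin genes (Hba-x, Hba-a1, Hba-a2, Hbb-bh1 and Hbb-y) were also called lower and had smaller ratios, from 0.00484 for Hba-a1 to 0.0380 for Hbb-y. Cells with Xist UMIs only and cells with Y-linked UMIs only, which come from different embryos of the pool, were compared apart. The intervals excluded 1 on the same side in both for 15 of 15 higher and 9 of 9 lower genes, and 13 and 6 of them were past 2-fold in both. Tagln, a smooth muscle gene, was 5.27-fold higher in the first and 1.85-fold in the second kind of cell. Egfl8 was 11.5-fold (8.73 to 15.2) and 5.36-fold (3.44 to 8.16) higher, and Gja5 5.25-fold (4.50 to 6.11) and 3.20-fold (2.39 to 4.23). Serpinf1, Tmem100, Igfbp3 and Myl9 also had larger ratios in the first kind, without overlap of intervals. Cxcr4, Hey1 and Unc5b had larger ratios in the second kind, with overlap. Actc1 rested on 4 UMIs in members of the second kind, with an interval of 0.587 to 6.67.

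**Figure D3:**
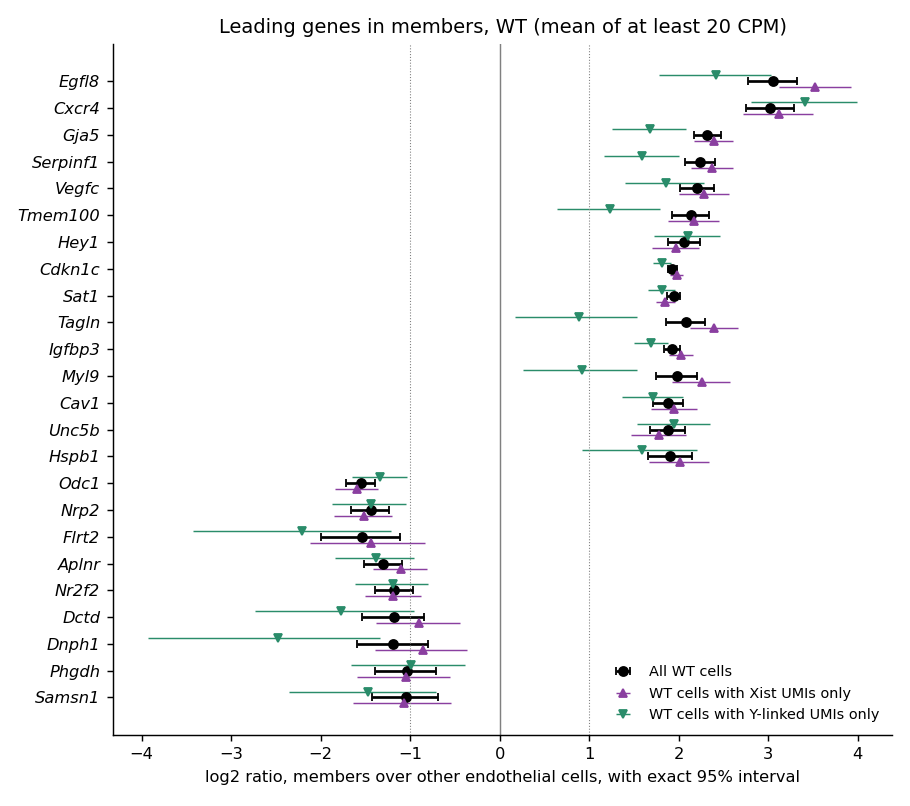
Log2 ratio of members over other WT endothelial cells (x axis) with exact 95% intervals for 15 genes far above and 9 far below (rows), in all WT cells (circles), cells with Xist UMIs only (upward triangles) and cells with Y-linked UMIs only (downward triangles). All 3 estimates lie on the same side of 0 for each gene, and dotted lines mark 2-fold.

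Marker lists of other cell types differed in level and direction between the members and the others. The neural list summed to 187 CPM in members and 218 CPM in the others, and 9 of its 21 genes had 0 UMIs in members, among them Dcx and Sox2. Tubb3, the neuronal tubulin, had 5 UMIs (1.27 CPM), and most of the sum came from Gap43 at 125 against 146 CPM and Crmp1 at 47.4 against 58.4 CPM. Hemoglobin genes summed to 24.3 CPM against 774 CPM, where 61 of the other cells and 2 members held 3 or more such UMIs. The blood list summed to 57.1 CPM in members and 73.6 CPM in the others, with 5 of 12 genes at 0, and the mesenchyme list to 18.5 and 14.2 CPM. The endocardial list summed to 355 CPM in members and 381 CPM in the others, with 49.1% and 53.3% of the cells at 3 or more such UMIs, 1 of 4 measured genes called higher (Npr3) and 2 of 7 at 0 in members. Of the neural list, 22.2% of members and 30.02% of the others held 3 or more UMIs. Of the smooth muscle list 4 of 8 measured genes were called higher. Acta2 had a ratio of 3.65 (3.13 to 4.24), but 28 members held all its UMIs and 20 cells held 96.4% of them, and for Tagln 20 cells held 76.0%. Myl9, found in 97 members, had a ratio of 3.94 (3.35 to 4.63), and Actc1 had 7.80 (5.15 to 11.7). The part that pairs of cells in 1 droplet have in these values was not tested.

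Compared with their nearest neighbours, the Gja4 cells without Stmn2, the members differed little. Of 8695 genes measured, 38 (0.437%) were called higher and 21 (0.242%) lower in the 436 members than in the 802 WT cells that met every part of the rule except Stmn2. The 21 included the 5 measured hemoglobin genes. The hemoglobin list summed to 24.3 against 1250 CPM, and 12 of the 802 cells held 3 or more such UMIs. Tmem100 had a ratio of 2.41 (1.97 to 2.96), Egfl8 2.14 (1.70 to 2.69), Gja5 2.06 (1.79 to 2.38) and Cdkn1c 1.77 (1.69 to 1.86). Of the arterial list 3 of 26 genes were called higher (Gja5, Tmem100 and Cxcl12), with a median log2 ratio of 0.23. Of the guidance, flow and KLF, and extracellular matrix lists, 0 of 13, 0 of 15 and 0 of 16 genes were called. A higher value was found for 7, 12 and 9 of them, and for 4174 of all 8695 genes. Dll4 and Hey1 stood close, at 55.5 and 50.7 CPM and at 88.2 and 78.4 CPM, with overlapping intervals. Mt1, a metallothionein, was lower at 13.9 against 36.1 CPM, and the G1 arrest gene Cdkn1a at 32.2 against 55.3 CPM.

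Cells with Stmn2 and without Gja4 had low levels of the arterial markers. The 1045 WT endothelial cells with Stmn2, no Gja4 UMI and at most 1 matrix gene UMI, whose median depth of 11054 UMIs was above that of the members, stood at 1.63 CPM of Gja5, 0.775 CPM of Cxcr4 and 4.89 CPM of Dll4. Nr2f2 stood at 145 CPM and Aplnr at 136 CPM in them. The 3469 cells with neither gene stood at 1.34 CPM of Gja5, 2.31 CPM of Cxcr4, 12.5 CPM of Dll4 and 115 CPM of Nr2f2. So in cells without Gja4, the Gja5 intervals of those with and without Stmn2 overlapped, while Cxcr4 and Dll4 were lower and Nr2f2 higher in those with Stmn2. In cells with Gja4, those with Stmn2 had the higher Gja5, Cxcr4, Egfl8 and Cdkn1c. These cell groups are cut from the same counts, so the pattern is a description.

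**Figure D4:**
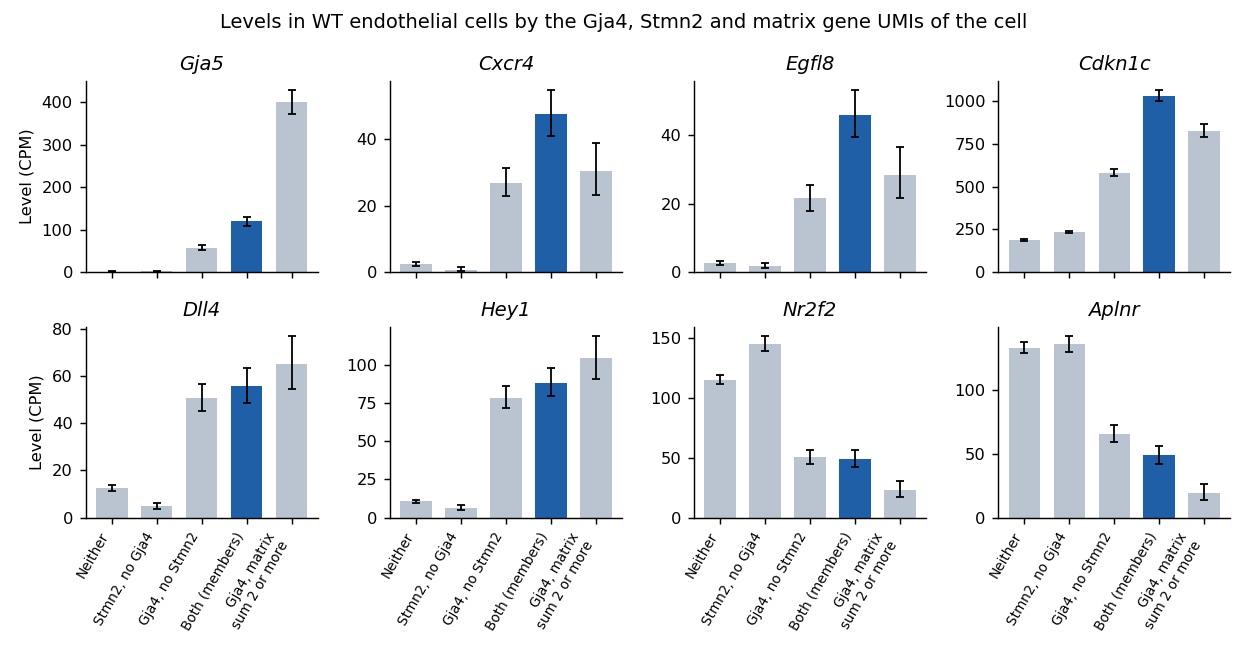
Level in CPM (y axes, each from 0) of 8 genes in 5 groups of WT endothelial cells (x axis), sorted by the UMIs they hold, with exact 95% intervals; members are dark. Gja5 is 1.34 and 1.63 CPM in the groups without Gja4 and 57.7, 119 and 400 CPM in those with it. Nr2f2 is higher in the groups without Gja4 than in members, and among those groups it is higher with Stmn2 than without.

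Against the 274 WT endothelial cells with Gja4 and at least 2 UMIs of the matrix genes, called matrix arterial cells here, members had lower levels of most arterial genes and higher levels of a few. Of 8957 genes measured, 179 (2%) were called higher and 542 (6.05%) lower in members. Gja5 stood at 119 against 400 CPM (373 to 428) and Hey2 at 9.64 against 48.4 CPM. Of 26 arterial genes 21 had a lower value, 8 were called lower and 2, Cxcl12 and Gja1, higher. Cxcr4 and Egfl8 ran the other way, at 47.4 against 30.3 CPM and 45.9 against 28.3 CPM. Of the guidance, flow and KLF, and extracellular matrix lists, 11 of 15, 11 of 15 and 17 of 18 genes had a lower value in members. So did 5503 of all 8957 genes. Farthest above were Vwa1 at a ratio of 6.69 (4.55 to 10.2) and the glucose transporter gene Slc2a1 at 4.60 (3.92 to 5.43), followed by Igfbp7, Lef1, Clec1b, Kitl, Gng2 and Dok4. Farthest below were Pde3a, a phosphodiesterase gene, at 2.28 against 71.8 CPM and P4ha3, Krt18, Sdpr, Adgrg6, Ifitm1, Isl1 and Ptn.

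Hemogenic and blood genes were part of that contrast. Of 16 measured hemogenic genes 12 were called lower in members than in the matrix arterial cells, with a median log2 ratio of -1.66, and Runx1 stood at 7.35 against 34.2 CPM. The blood list summed to 57.1 against 170 CPM and the epithelial list to 6.09 against 71.8 CPM. The part of other cell types in these values was not tested. Stmn2 was found in 184 of the 274 matrix arterial cells (67.2%, 61.2 to 72.7), against 35.2% of the Gja4 cells within the limit, and in 0 of 27 such cells of the KO library, which allows a share of up to 11.1%.

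The members were also divided by their own UMIs of Gja4, Stmn2 or Gja5. Gja4 and Stmn2 chose the members and raw counts also sort cells by depth, so the values are a description and rank neither gene. The arterial list summed to 1322 CPM in members with 1 Gja4 UMI, 2486 with 2 or 3 and 3235 with 4 or more, against 1055 CPM in the other endothelial cells. Members with 1 Gja4 UMI were also deeper, with a median of 10119 UMIs against 5855 and 7236.5. By Stmn2 UMIs the sums were 2409, 2410.3 and 2803 CPM, at median depths of 5485, 7518 and 7632. Cdkn1c stood at 363, 721 and 1502 CPM by Gja4 UMIs and at 774, 776 and 1414 CPM by Stmn2 UMIs. Nr2f2 ran from 91.1 to 30.5 CPM over the steps of Gja4, and from 43.8 to 53.2 CPM over those of Stmn2.

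The 181 members with a Gja5 UMI stood apart from the 255 without one. Their arterial list summed to 4557 against 1725 CPM, which includes Gja5 itself. Cdkn1c stood at 1852 against 683 CPM, Igfbp3 at 668 against 216 CPM, Tmem100 at 171 against 18.0 CPM and Nr2f2 at 23.0 against 59.9 CPM. The G2/M list summed to 1989.8 against 3182 CPM and the S-phase list to 1168 against 1473 CPM. Acta2 stood at 160 against 11.6 CPM. Members without a Gja5 UMI were deeper, with a median of 9116 UMIs against 4749.

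**Figure D5:**
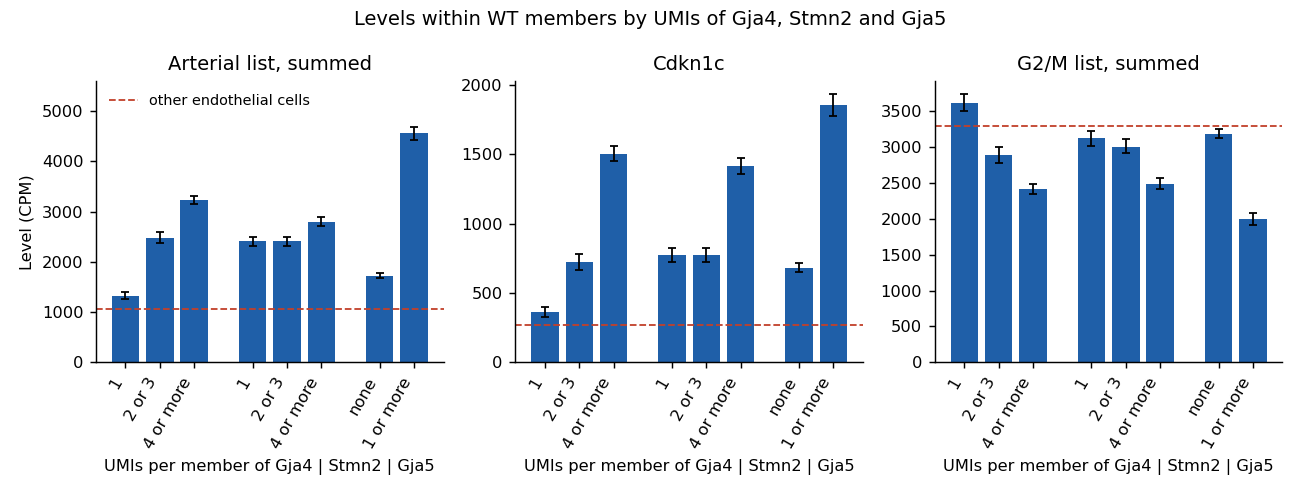
Level in CPM (y axes, from 0) of the summed arterial list, Cdkn1c and the summed G2/M list in WT members grouped by their UMIs of Gja4, Stmn2 or Gja5 (x axis), with exact 95% intervals; the dashed line is the level in the other WT endothelial cells. The arterial list climbs from 1322 to 3235 CPM over the steps of Gja4 and stands at 4557 CPM in members with Gja5.

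The 7 KO members held UMIs of some arterial genes and 0 of others. Against the other 2762 KO endothelial cells, 7885 genes were measured, of which 245 (3.11%) were called higher and 101 (1.28%) lower. Their arterial list summed to 2469 CPM, against 2567 CPM in WT members. It summed to 2901 CPM in KO cells with Gja4 and no Stmn2, against 2110.3 CPM in such WT cells, and to 1570.3 CPM in the other KO and 1055 CPM in the other WT endothelial cells. Cxcr4 had 5 UMIs over 3 cells (59.1 CPM, 19.2 to 138), Dll4 5 UMIs and Hey1 7 UMIs. Gja5 had 1 UMI, and Egfl8 and Nr2f2 had 0, where a count of 0 allows 35.4 CPM. Cdkn1c had 29 UMIs, of which 20 were in 1 cell. Klf2 had 3 UMIs (35.4 CPM, 7.31 to 104) against 489.9 CPM in WT members, a ratio of 0.0723 (0.0149 to 0.212). A lower Klf2 level was not particular to the KO members. In the other endothelial cells Klf2 had 2532 of 19614715 UMIs in KO and 22491 of 53811156 in WT.

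The KO members held more RNA of hypoxia and glycolysis genes and less of cell cycle genes than the WT members. Of 8747 genes measured, 331 (3.78%) were called higher and 335 (3.83%) lower in the 7 KO members. The hypoxia and glycolysis list summed to 18218 CPM in KO and 5329 CPM in WT members, and to 16349 CPM and 5732 CPM in the other endothelial cells. Farthest above were Slc2a3, Fam13a, Vldlr, Bnip3, Adm and Ankrd37, with Slc2a3, a glucose transporter, at 33 UMIs in 7 KO cells against 11 in 436 WT cells. Farthest below were Klf2, Tuba1a, H2afx, Cald1, Cycs and Id1. The S-phase list summed to 449 against 1382 CPM and the G2/M list to 922 against 2827 CPM. In the other endothelial cells the S-phase list summed to 1006 CPM in KO and 1750.3 CPM in WT, and the G2/M list to 3021 and 3283 CPM. The lower sums were not particular to the members. In Gja4 cells without Stmn2 the S-phase list summed to 628 CPM in KO and 1445 CPM in WT. The G2/M list summed to 1872 and 2670 CPM in them. All 7 KO members held Xist UMIs and 0 Y-linked ones, whereas WT members were of both kinds.

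The 294 KO cells with Gja4 and no Stmn2 gave a larger base. Their Gja4 stood at 342 CPM (315 to 369.98) against 421 CPM (405 to 438) in the 802 such WT cells. Gja5 stood at 29.2 CPM (21.8 to 38.3) against 57.7 CPM, with 84.6% of its KO UMIs in 20 cells, and Egfl8 at 6.17 CPM (3.08 to 11.04) against 21.5 CPM. Dll4 was higher, at 72.4 CPM (60.4 to 86.0) against 50.7 CPM (45.2 to 56.7), and Hey1 was level at 78.0 and 78.4 CPM. Cxcr4 stood at 30.3 and 26.9 CPM with overlapping intervals. Esm1, a tip cell gene, stood at 205 CPM (185 to 228) against 41.8 CPM (36.9 to 47.3), and Cdkn1c at 366 against 581 CPM. So within Gja4 cells the KO library had less Gja5, Egfl8 and Cdkn1c and more Dll4 and Esm1, and it lacked Stmn2 by the way these cells were chosen.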

How the data were processed

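Single-cell 3′ RNA sequencing (10x, chemistry version 3) was deposited for 1 WT and 1 KO library. The authors deposited UMI counts per gene and cell with cell annotations. Cell Ranger and mm10 are named per the submitters' processing notes, while version, annotation and strand setting were not given in the sources used here. That deposited annotation also gives a mitochondrial fraction per cell, used as a description of quality, and a size factor, a ratio that was not used. The smallest cell total was 501 UMIs. Doublets were neither called nor removed. The labels name 1 sample per group, so no test across samples was possible.

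Members were chosen by UMI counts. The members, the markers that name them and the 33 gene lists were chosen with earlier results of these data known. UMIs were summed over each cell group and divided by the group's total (CPM). Intervals were exact Poisson for levels, conditional binomial for ratios and Clopper-Pearson for shares, at 95%, and cover counting error only. Log2 ratios had 0.5 UMI added to each sum. Genes were measured from a mean of 5 CPM and 20 UMIs over both groups upward, without the genes of the rule, and called where at least 2-fold with an interval excluding 1. A count of 0 was bounded at 3 UMIs. The scripts were tested on simulated data.

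Named genes were the 15 higher and 10 lower with the interval bound farthest from 1 and a mean of at least 20 CPM (8 and 8 against matrix arterial cells, 6 and 6 in other comparisons), a preset group, and up to 4 per list by level. A gene that the rule chose is not reported here. Foxq1, Prox1, Actc1, Smad6, Jag2, Lfng, Spi1, Sparcl1, Mfap2, Hk2, Edn1, Top2a, Bmp4, Cdkn1a, Jag1, Acvrl1, Gja1, Fbln5, Alpl, Dcx, Sox2, Bgn, Emilin1 and the hemoglobin genes were named after their values were seen. Of 27998 gene identifiers 27645 matched GENCODE vM21, and 121 shared a symbol with another. Alternatives covered the rule's bounds, depth, leaving out the deepest 1% of cells, other cell types, scaling, filters, cell cycle and sex. None of them was a doublet call. Python 3.11.15, numpy 2.4.6, scipy 1.17.1, pandas 2.3.3, matplotlib 3.10.9 and, for TMM factors only, edgeR 4.0.16 were used.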

Additional observations from a re-analysis of the deposited data

Results flagged for a closer look

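For 4 of the genes named in this report the ratio of members over others lay on opposite sides of 1 in the 2 libraries, with intervals that excluded 1 in KO. How many of all genes did so is not given here, so 4 is not a count over the data. Over all 7885 genes measured in KO, 101 (1.28%) were called lower in the members. A call also asks for at least 2-fold, so that share follows another criterion. How many genes on opposite sides counting error alone would give was not tested. The ratio of members over others for Klf2, the flow-induced transcription factor, was 0.275 (0.0566 to 0.803) in KO, from 3 UMIs in the 7 members, and 1.17 in WT. For Eng, a co-receptor of the BMP pathway, it was 0.417 (0.135 to 0.973) in KO, from 5 UMIs, and 1.31 in WT. Id1, a target of BMP signalling, had a ratio of 0.493 (0.213 to 0.973) in KO, from 8 UMIs, and 1.44 in WT. For Cald1, an actin-binding protein gene, the ratio was 0.294 (0.0605 to 0.859) in KO, from 3 UMIs, and 1.06 in WT. Within WT it was 1.07 (0.984 to 1.17) in Xist-marked and 0.985 (0.873 to 1.11) in Y-marked cells, so WT had no clear side for Cald1. The difference between the libraries was not tested for any of these genes, since each genotype has 1 library.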

How the results depend on the processing

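No paired analysis was possible because each genotype has 1 library. The cause was not tested for any change below.

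The 206 genes called higher and 59 called lower in WT members became 332 and 127 with at least 2 UMIs of Gja4 and Stmn2, 564 and 257 after thinning to 3000 UMIs, and 375 and 139 between the quartiles of member depth. They were 323 and 111 without cells marked as other types, 381 and 146 when members were chosen on one random part of the UMIs and measured on the other, and 317 and 127 in cells with a low cell cycle share. With a mean of at least 50 CPM there were 41 and 6, and with no CPM minimum 454 and 158. Without the limit on matrix genes 332 were higher. The lower genes numbered 138 with the mean of single-cell CPM, 91 with totals that left out mitochondrial, ribosomal and hemoglobin genes, 150 in Y-marked and 102 in Xist-marked cells.

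The arterial list's median log2 ratio of 1.56 became 1.76 with at least 2 UMIs of both, 1.31 with 0 matrix gene UMIs, 1.89 with no limit on them, 1.83 thinned, 1.81 at middle depth, 1.78 on random parts, 1.02 at 50 CPM or more and 1.36 in Y-marked cells. The venous median of -0.40 became -0.68 with at least 2 UMIs of both, -0.81 at middle depth, -0.83 without cells of other types, -0.72 at 50 CPM or more and -0.12 in Y-marked cells. The blood list's -0.81 reversed to 0.26 without the matrix limit, 0.94 thinned and 0.24 at middle depth. Spi1 reversed to 0.26 without the matrix limit, Cdkn1a to -0.069 with at least 2 UMIs of both, -0.069 thinned and -0.14 at middle depth, Isl1 to -0.40 in Y-marked cells, and Cdh2 against Gja4 cells without Stmn2 to 0.0023 in Y-marked cells.

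The WT share of 7.16% became 3.99% with at least 2 UMIs of both, 5.65% with 0 matrix gene UMIs, 10.2% with no limit on them, 8.38% of cells with at least 3 UMIs of Cdh5 and Pecam1, 5.03% thinned and 7.95% without cells of other types. The KO share of 0.253% became 0% and 0.0642% with the first and the thinned setting. Thinning gave 190 lower genes in place of 542 against matrix arterial cells, and 60 higher and 8 lower in place of 331 and 335 between KO and WT members, with 1 KO cell. Against Gja4 cells without Stmn2, 38 and 21 became 122 and 118 thinned, 74 and 72 in Y-marked and 77 and 85 in Xist-marked cells.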

Other observations

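Of 15 measured genes of the extracellular matrix list, 13 had a higher value in the WT members than in the other WT endothelial cells and 3 were called higher, with a median log2 ratio of 0.64. Bgn and Emilin1 had lower values, with ratios of 0.749 (0.624 to 0.892) and 0.714 (0.617 to 0.823). Sparcl1, a secreted matrix-associated protein gene, stood at 158 CPM against 52.1 CPM, a ratio of 3.04 (2.78 to 3.31). Col18a1, a collagen of basement membranes, had a ratio of 2.11 and Mfap2, of the elastic microfibrils, 2.31. Npr3, a natriuretic peptide receptor gene of the endocardial list, had a ratio of 3.37 (2.97 to 3.804).

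All 15 measured genes of sterol synthesis had a higher value in the members, with a median log2 ratio of 0.39, and 0 were called. The hypoxia and glycolysis list had a median of -0.09 over 20 measured genes, with Slc2a1, a glucose transporter, called higher at 2.33 (2.20 to 2.46) and Hk2, a hexokinase, called lower at 0.375 (0.192 to 0.661) from 12 UMIs. In the BMP list Bmp4 was called lower, at 5.33 against 15.2 CPM. Of the Hox genes, which record position along the body axis, 0 of 6 measured Hoxa, 0 of 7 Hoxb and 0 of 2 Hoxd genes were called.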
